A study of Homo sapiens with 8 samples.

Results

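The network of MYC, MAX and MXD transcription factors was followed through 10 genes: MYC, MYCN and MYCL, their shared partner MAX, the antagonists MXD1, MXD3, MXD4, MXI1 and MNT, and MLXIPL. They were taken by gene symbol from count tables of 58302 Ensembl gene IDs, and all 10 were found and all 10 were among the 18240 genes tested. The counts come from RNA-seq of Caco-2/15 cells, a human colon cancer line whose cells come to resemble absorptive enterocytes once confluent. The study made 2 tagged populations by CRISPR-Cas9, each with a Flag tag put heterozygously at the 3′ end of 1 of the genes for the histone variant H2A.Z: H2AFZ in Z1flag and H2AFV in Z2flag. The 4 groups were subconfluent Z1flag, postconfluent Z1flag, subconfluent Z2flag and postconfluent Z2flag, with 2 libraries each, and postconfluent meant 7 days after confluence. Every group carries a Flag tag, and untagged cells were not analysed here. The labels do not say whether a population is 1 clone. Libraries of a group are numbered as separate experiments, and p-values measure only the spread between them.

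MYC, MYCN and MYCL are basic helix-loop-helix leucine zipper proteins that bind DNA as dimers with MAX, preferring the E-box CACGTG, and recruit histone acetyltransferases to genes of ribosome production, metabolism and cell division. MXD proteins and MNT take the same partner and the same sites but bring in SIN3 and histone deacetylases. A parallel arm, in which MLX pairs with MLXIPL (ChREBP) or MLXIP (MondoA), responds to glucose metabolites. In the intestine MYC is a known Wnt target of dividing crypt cells, while MXD1, MXD4 and MXI1 are known for expression in cells that leave the cycle, unlike MXD3, which is known from dividing cells.

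Promoter windows of RefSeq (GRCh38.p14), 250 bases before to 50 after a gene's start, were found for 9 of the 10 genes, 12 windows in all, MYC being unmatched. The E-box CACGTG, its own reverse complement, was present in 2 of the 12 windows (16.7%). It was in 7.26% of all 35116 RefSeq windows and in 9.07% of the windows of tested genes. So few windows cannot tell 2 from these shares. The 2 windows are those of MXD4 and MNT. Their stretches upstream of any annotated exon are shown because they hold the sequence the network itself reads, with the E-box in capitals. That of MXI1, the member with the largest estimated change over both lines, is shown (the first of its 3 windows) as one without the E-box. The MXD4 stretch is on the minus strand at chr4:2262295-2262359, the MNT stretch on the minus strand at chr17:2401119-2401310 and the MXI1 stretch on the plus strand at chr10:110207355-110207604.
MXD4: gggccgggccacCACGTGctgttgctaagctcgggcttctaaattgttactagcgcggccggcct
MNT: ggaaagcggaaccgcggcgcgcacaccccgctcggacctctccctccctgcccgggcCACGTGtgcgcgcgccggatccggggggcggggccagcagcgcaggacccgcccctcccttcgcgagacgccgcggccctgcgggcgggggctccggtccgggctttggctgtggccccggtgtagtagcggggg
MXI1: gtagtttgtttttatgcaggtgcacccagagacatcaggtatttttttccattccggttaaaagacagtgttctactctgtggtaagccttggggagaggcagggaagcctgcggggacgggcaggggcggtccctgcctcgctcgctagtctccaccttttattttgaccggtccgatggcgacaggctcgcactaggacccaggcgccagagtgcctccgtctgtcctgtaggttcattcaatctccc
The E-box begins 238 bases before the start of MXD4 and 193 bases before that of MNT. Of the related E-boxes, CATGTG (or CACATG on the other strand) was in 1 of the 12 windows, that of MYCL. CACGCG (or CGCGTG) was in 2 of the 12, 1 of MXD3 and 1 of MXI1. The 2 motifs were in 11.1% and 11.4% of all RefSeq windows, and in 7.77% and 16.7% of the windows of tested genes. Such a match describes the letters only.

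Library depth was 17063826 to 40881682 gene counts. Reads in no feature made up 20.6% to 32.0% of reads, highest in replicate 1 of Z1flag in either state. The first principal component separated the states and held 71.7% of the variance, and the second, with 13.1%, set postconfluent Z1flag replicate 1 (73.9) apart from postconfluent Z2flag replicate 1 (-55.7). These 2 libraries also lie at opposite ends for MYC, MXD1 and MXD4, and for MAX, among the postconfluent libraries, so the values without them are given where they decide a call. Levels below are CPM, counts scaled to a common library size with TMM factors. Fold changes are log2 estimates of edgeR's quasi-likelihood fit, postconfluent minus subconfluent, and adjusted p-values are Benjamini-Hochberg values over all 18240 genes, with 0.05 as the threshold.

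The design gives 6 comparisons: the change with confluence in each line, over both lines, the difference between the lines' changes, and the lines against each other in each state. In Z1flag, 6 of the 10 members rose and 0 fell, where 21.3% of all tested genes rose and 19.1% fell (40.5% in either direction). At an unadjusted p under 0.05 MYC and MYCN were also lower in Z1flag, where 9078 of all 18240 genes passed in either direction. DESeq2 called 1 member lower there, MYCN, beside 3495 of all genes, while limma voom called 0 members, beside 3644. In Z2flag, 7 rose and 1 fell, where 18.3% rose and 19.3% fell (37.6% in all). Over both lines, 7 rose and 1 fell, where 27.8% rose and 27.5% fell (55.4% in all). The members' median log2 fold change over both lines was 1.44, beside -0.01 over all tested genes. The risers were MYCL, MAX, MXD1, MXD3, MXD4, MXI1 and MLXIPL, the gene that fell was MYCN, and MYC and MNT did not pass. For these 7 genes all 4 postconfluent CPM values lay above all 4 subconfluent ones, and for MYCN all 4 lay below. Among all tested genes, 25.1% were separated upward in this way and 26.1% downward (51.2% in all). Within Z1flag alone, 7 members lay above and 2 below, MYC and MYCN, beside 35.1% and 33.5% of all genes (68.7% in all). Within Z2flag alone, 8 lay above, MNT included, and 1 below, beside 36.3% and 41.2% (77.5% in all). In bulk RNA, fewer cells with a transcript and less transcript per cell cannot be told apart.

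**Figure D1:**
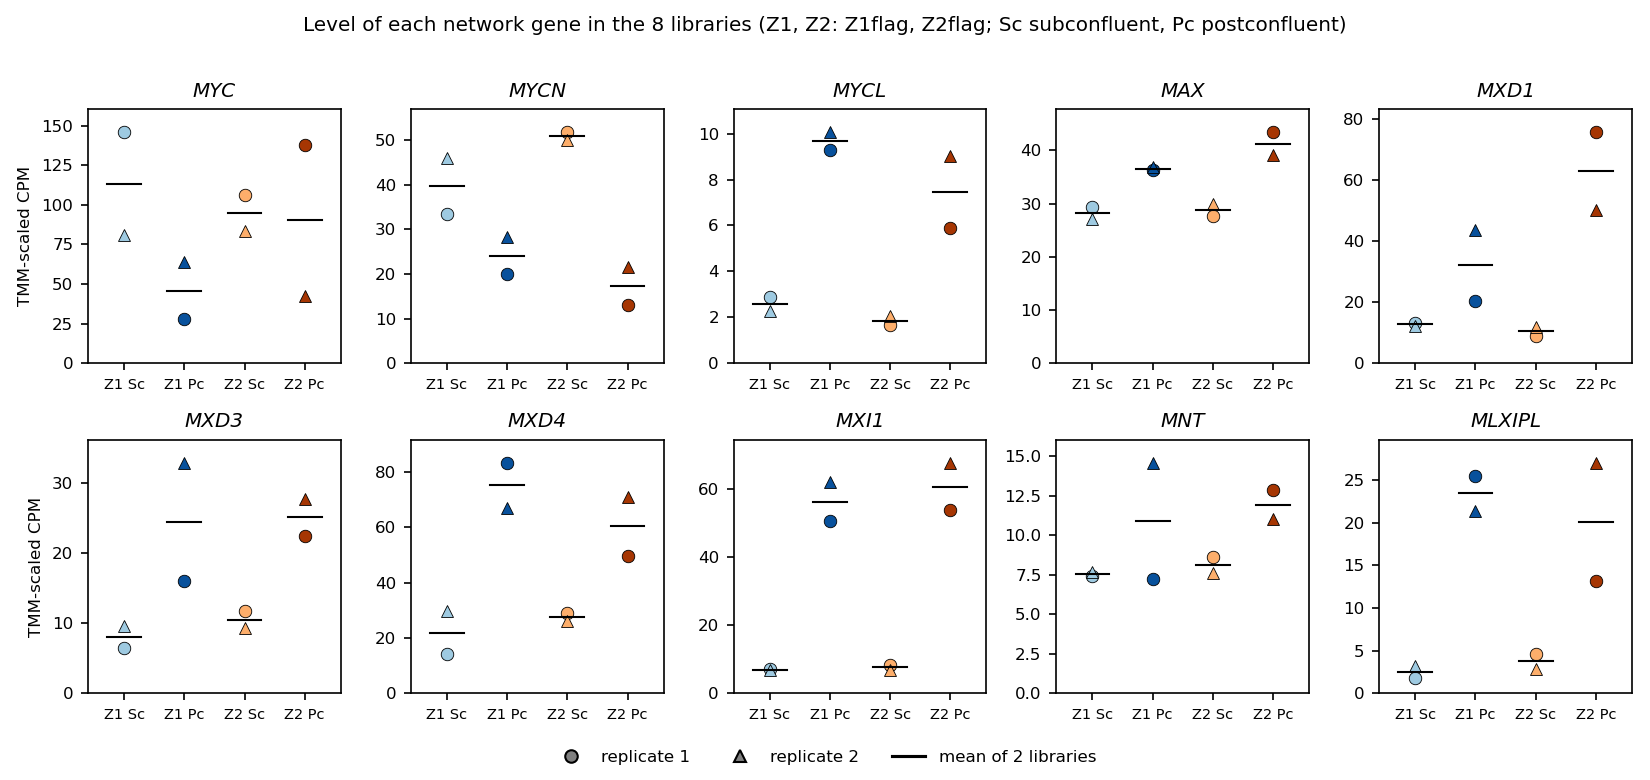
TMM-scaled CPM (linear axis from 0, own range per gene) of the 10 network genes in the 8 libraries, by tagged line and state; circles and triangles are replicates 1 and 2, bars the mean of 2 libraries. MYC overlaps between the states in Z2flag, where postconfluent replicate 1 stands at 138 CPM and replicate 2 at 42.5 CPM, while MXI1 is below 8.4 CPM in every subconfluent library and above 50 CPM in every postconfluent one.

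MYC, the family member with the highest level in subconfluent cells, had the least settled response. In Z1flag it stood at 146 and 81.1 CPM in subconfluent replicates 1 and 2 and at 27.6 and 63.8 CPM in the postconfluent ones. In Z2flag it stood at 107 and 83.3 CPM before and at 138 and 42.5 CPM after confluence. The states did not overlap in Z1flag and overlapped in Z2flag, where 1 postconfluent library was above both subconfluent ones and the other below both. The log2 fold change was -1.31 ± 0.53 (SE; edgeR adjusted p = 0.0724) in Z1flag, -0.07 ± 0.52 (adjusted p = 0.926) in Z2flag and -0.69 ± 0.37 (adjusted p = 0.136) over both lines. Without postconfluent Z2flag replicate 1, the value over both lines was -1.19 and passed (adjusted p = 0.0216), and the Z1flag value, -1.30, passed without either postconfluent Z2flag library (adjusted p = 0.0407 and 0.0408). Without postconfluent Z2flag replicate 2, the Z2flag value turned to 0.63 (adjusted p = 0.379). The difference between the lines' changes was 1.24 ± 0.74 on the log2 scale, with an adjusted p of 0.799. Leaving out 1 library at a time, the Z1flag value ranged from -2.05 to -0.80 and the difference from 0.23 to 2.07. Over all 17 alternatives the Z1flag value ranged from -2.05 to -0.32. Over the 16 run for both lines, the value ranged from -1.19 to -0.17.

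Of 6 listed long non-coding neighbours of MYC and MYCN, 3 could be tested. Over both lines 1 fell and 0 rose, where 27.5% of all genes fell, and 3 genes cannot tell 1 from that share. The 2 beside MYC shared its high postconfluent library. CASC19 had 33.1 and 25.5 CPM in the postconfluent Z1flag libraries and 66.6 and 24.3 CPM in the Z2flag ones, against 44.3 to 79.4 CPM in the 4 subconfluent libraries. PVT1 had 3.48 and 8.27 CPM in postconfluent Z1flag and 9.98 and 5.77 CPM in postconfluent Z2flag. Both genes were highest after confluence in Z2flag replicate 1, as MYC was, and neither passed over both lines (adjusted p = 0.108 and 0.279). Over the 8 libraries, the log2 CPM of MYC was most like that of PLEK2 (Pearson r = 0.982), YBX3 (r = 0.973), a cold shock domain protein, and SF1 (r = 0.960), a splicing factor, among 11063 genes of at least 5 CPM. These r describe 8 libraries that share their state, line and depth. YBX3 fell over both lines (log2 -0.75, adjusted p = 0.0329) and had 138 CPM in postconfluent Z2flag replicate 1 against 42.5 to 74.8 CPM in the 3 remaining postconfluent ones.

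MYCN, the paralogue best known from neuroblastoma, fell. Its level was 33.4 and 46.1 CPM in subconfluent and 19.97 and 28.2 CPM in postconfluent Z1flag. In Z2flag it was 51.8 and 50.1 CPM before and 13.0 and 21.7 CPM after confluence. The states did not overlap in either line. Over both lines MYCN fell by 1.14 ± 0.20 on the log2 scale (2.20-fold, adjusted p = 0.00096), and this call held under all 16 alternatives run for it. In Z2flag it fell by 1.56 ± 0.29 (adjusted p = 0.0028), and in Z1flag the value was -0.72 ± 0.28 (adjusted p = 0.0637), which passed in 6 of 17 alternatives, among them DESeq2 (adjusted p = 0.0462). The difference between the lines, -0.83 ± 0.40, did not pass (adjusted p = 0.799). MYCNOS, its antisense neighbour, had a mean of 0.451 CPM before and 0.194 CPM after confluence (log2 -1.34, adjusted p = 0.0316), a call that held in 6 of 15 alternatives.

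MYCL, the third family member, rose from a low level. It had 2.88 and 2.25 CPM in subconfluent and 9.30 and 10.1 CPM in postconfluent Z1flag, then 1.64 and 2.05 against 5.90 and 9.02 CPM in Z2flag. Every postconfluent library was more than 2-fold above every subconfluent one. The log2 fold change was 1.91 ± 0.32 in Z1flag (adjusted p = 0.0016), 2.01 ± 0.32 in Z2flag (adjusted p = 0.0014) and 1.96 ± 0.23 over both (3.90-fold). Among the other members MYCL was most like MXI1 over the 8 libraries (r = 0.952). MYC and MYCN were most like each other, with an r of only 0.222.

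MAX, the obligate partner of both sides, moved least of the risers. It had 29.4 and 27.0 CPM in subconfluent and 36.3 and 36.8 CPM in postconfluent Z1flag, and 27.7 and 29.996 against 43.4 and 39.1 CPM in Z2flag. The states were separated in both lines, with all 8 values between 27.0 and 43.4 CPM. The rise over both lines was 0.45 ± 0.13 on the log2 scale (1.36-fold, adjusted p = 0.0137), 0.52 ± 0.18 in Z2flag (adjusted p = 0.0468) and, not passing, 0.38 ± 0.18 in Z1flag (adjusted p = 0.124). The call held in 11 of 16 alternatives over both lines and in 9 of 17 in Z2flag. Both calls were lost without any 1 of the 4 subconfluent libraries and with no filter on low counts. The Z2flag call was also lost with the replicate block and without either postconfluent Z2flag library. Its value was 0.52 without postconfluent Z2flag replicate 1 and 0.68 without replicate 2.

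MXI1 (also called MXD2) had the largest estimated rise over both lines, nearly the same in each. The range of MLXIPL over 16 alternatives, 2.56 to 3.08, overlapped that of MXI1. In Z1flag the MLXIPL estimate was the larger (3.21). MXI1 stood at 7.07 and 6.95 CPM in subconfluent and 50.5 and 62.0 CPM in postconfluent Z1flag. In Z2flag it stood at 8.34 and 7.01 CPM before and 53.7 and 67.7 CPM after confluence. The gap between the states was far wider than the spread within any group. The log2 fold change was 3.003 ± 0.23 in Z1flag and 2.98 ± 0.23 in Z2flag, and over both lines 2.99 ± 0.16 (7.96-fold, adjusted p = 2.7e-06). The range over 16 alternatives was 2.92 to 3.18. The difference between the lines was -0.02 ± 0.30, with an interval of ± 2 SE from -0.62 to 0.58.

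MXD1 and MXD4 differed more between postconfluent libraries. MXD1, first described as MAD, had 13.2 and 12.1 CPM in subconfluent and 20.5 and 43.7 CPM in postconfluent Z1flag, against 8.94 and 11.8 then 75.5 and 50.2 CPM in Z2flag. Its lowest postconfluent level was in Z1flag replicate 1 and its highest in Z2flag replicate 1. It rose by a log2 value of 1.34 ± 0.35 in Z1flag (adjusted p = 0.0129), 2.60 ± 0.36 in Z2flag (adjusted p = 0.00075) and 1.97 ± 0.25 over both lines. The Z1flag call was lost without either subconfluent Z1flag library or without postconfluent Z1flag replicate 2, where the value was 0.68 (adjusted p = 0.0676).

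MXD4 had 14.3 and 29.6 CPM in subconfluent and 83.2 and 67.0 CPM in postconfluent Z1flag, and 29.1 and 26.3 against 49.7 and 70.9 CPM in Z2flag. Its order among the postconfluent libraries was the reverse of that of MXD1 at the ends, highest in Z1flag replicate 1 and lowest in Z2flag replicate 1. The rise was 1.77 ± 0.32 in Z1flag (adjusted p = 0.0024), 1.12 ± 0.32 in Z2flag (adjusted p = 0.0198) and 1.45 ± 0.23 over both. The Z2flag call was lost without either subconfluent Z2flag library or without postconfluent Z2flag replicate 2, with adjusted p up to 0.126. MXD4 and MLXIPL were the pair of members with the highest likeness over the 8 libraries (r = 0.974).

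MXD3 rose from 6.44 and 9.54 to 16.0 and 32.9 CPM in Z1flag and from 11.7 and 9.29 to 22.5 and 27.7 CPM in Z2flag. The states were separated in both lines. The log2 fold change was 1.605 ± 0.35 (adjusted p = 0.0058) in Z1flag, 1.26 ± 0.35 (adjusted p = 0.0177) in Z2flag and 1.43 ± 0.25 over both lines (2.70-fold). The Z1flag call was lost without subconfluent Z1flag replicate 1 (adjusted p = 0.0692), and the Z2flag call without any 1 of 3 Z2flag libraries, both subconfluent ones and postconfluent replicate 2. Exons of MXD3 overlap those of PRELID1 on the opposite strand over 1158 bases and of RAB24 on its own strand over 926 bases. The sources used here do not give the strand setting of the counting, so reads of MXD3 and PRELID1, which has a mean of 2700 counts per library, may be shared and the MXD3 values are uncertain. A smaller overlap of 237 bases joins MXD1 and SNRNP27 on the same strand.

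MNT, the broadly expressed antagonist, did not pass. It had 7.43 and 7.71 CPM in subconfluent and 7.26 and 14.6 CPM in postconfluent Z1flag, and 8.60 and 7.63 against 12.8 and 11.01 CPM in Z2flag. Postconfluent Z1flag replicate 1 lay below all subconfluent libraries and the other 3 lay above them. The log2 fold change was 0.52 ± 0.33 (adjusted p = 0.222) in Z1flag, 0.56 ± 0.32 (adjusted p = 0.198) in Z2flag and 0.54 ± 0.23 (adjusted p = 0.0681) over both lines. Without postconfluent Z1flag replicate 1 the value over both lines was 0.81 and passed (adjusted p = 0.0017). Without postconfluent Z1flag replicate 2 the Z1flag value was -0.07 (adjusted p = 0.851).

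MLXIPL, the glucose-responsive factor ChREBP, rose strongly. It had 1.85 and 3.17 CPM in subconfluent and 25.5 and 21.3 CPM in postconfluent Z1flag, and 4.59 and 2.90 against 13.1 and 27.0 CPM in Z2flag. The highest subconfluent and the lowest postconfluent value, both in Z2flag replicate 1, were still more than 2-fold apart. The log2 fold change was 3.21 ± 0.42 (adjusted p = 0.0005) in Z1flag, 2.42 ± 0.40 (adjusted p = 0.0017) in Z2flag and 2.81 ± 0.29 over both lines (7.04-fold, adjusted p = 4.4e-05). The 3 genes whose log2 CPM was most like it were MRNIP (r = 0.999), a DNA repair factor, ADGRD1 (r = 0.998), an adhesion receptor, and APOM (r = 0.998), an apolipoprotein. Its partner and the rest of the wider network did not pass in either line: MLX had a mean of 48.9 ± 1.29 CPM before and 46.5 ± 4.56 CPM after confluence (SD, n = 4), MLXIP 27.9 ± 1.80 and 28.2 ± 2.89 CPM, and MGA, which joins MAX to a Polycomb complex, 272 ± 17.4 and 293 ± 38.3 CPM.

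**Figure D2:**
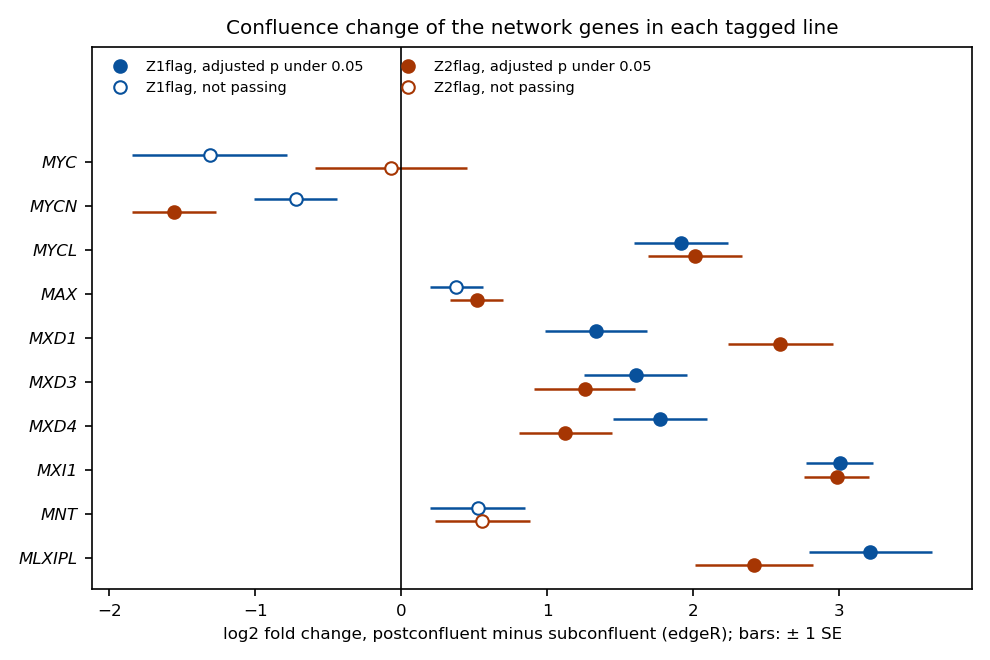
Log2 fold change with confluence (horizontal axis, edgeR, bars ± 1 SE) of each member in Z1flag and Z2flag, filled where the adjusted p is under 0.05. MXI1 has nearly the same value in both lines, 3.003 and 2.98, while MYC is at -1.31 and -0.07, with neither passing.

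For no member did the change with confluence differ between the lines past the threshold. The test of that difference called 0 members and 0 of all genes in edgeR (0% of those tested), and 0 also with DESeq2 and limma voom. At an unadjusted p under 0.05, edgeR gave 1 member, MXD1, among 902 genes. The MXD1 difference was 1.26 ± 0.49 on the log2 scale, larger in Z2flag, with an adjusted p of 0.799. Without postconfluent Z1flag replicate 2 it was 2.00 and passed (adjusted p = 0.0482), 1 of 190 genes called by that fit. Between the lines in the subconfluent state 0 members passed, and 0 in the postconfluent state, where 0% of all genes passed in either. At an unadjusted p under 0.05 there were 0 members of 195 genes and 1 member, again MXD1, of 1308 genes. The MXD1 level after confluence was 0.97 ± 0.34 higher in Z2flag on the log2 scale (adjusted p = 0.638). DESeq2 and limma voom also called 0 genes in both states.

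Divided by exon length, levels were set beside each other between genes as a rough guide. The length is the union of all annotated exons, from 2602 bases for MYCN to 8728 for MNT. Which isoforms were expressed was not examined, so orders and ratios between genes depend on this choice. Before confluence the mean CPM per kilobase was 34.7 for MYC, 17.4 for MYCN and 6.44 for MAX. It was 3.52 for MXD4, 1.82 for MXD1, 1.79 for MXD3 and 1.59 for MXI1, then 0.899 for MNT, 0.649 for MLXIPL and 0.436 for MYCL. In that order MYC, MYCN, MAX and MXD4 each stood apart from the next over the 4 libraries, except that MXD4 met MXD1 at 2.03 and 2.09. MXD1, MXD3 and MXI1 overlapped, MXI1 stood above MNT, and MNT overlapped with MLXIPL and MLXIPL with MYCL. After confluence the order of means was MYC at 22.7, MXI1 at 12.7, MXD4 at 9.59, MAX at 8.79, MYCN at 7.96, MXD1 at 7.47, MXD3 at 4.80, MLXIPL at 4.51, MYCL at 1.69 and MNT at 1.31. Each of these overlapped its neighbour over the 4 libraries, except that MLXIPL (2.72 to 5.61) stood above MYCL (1.17 to 1.99). MXI1 thus went from the seventh to the second place.

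Summed per kilobase, the antagonists' transcripts were outnumbered by those of the MYC family in all 4 subconfluent libraries and exceeded them in 3 of 4 postconfluent ones. The 5 genes MXD1, MXD3, MXD4, MXI1 and MNT summed to 7.75 to 10.6 CPM per kilobase before and 29.9 to 39.3 after confluence, and the states did not overlap. The 3 MYC genes summed to 45.2 to 62.0 before and to 18.7, 34.1, 52.2 and 24.3 after confluence in Z1flag replicates 1 and 2 and Z2flag replicates 1 and 2, and the states overlapped. The ratio of the MYC family to the antagonists was 7.99, 4.37, 5.26 and 4.85 in the subconfluent libraries in the same order. It was 0.626, 0.900, 1.43 and 0.618 in the postconfluent ones. Even the library with 138 CPM of MYC, postconfluent Z2flag replicate 1, had a ratio below all subconfluent ones. MXI1 made up 14.6% to 19.8% of the antagonist sum before and 32.0% to 37.4% after confluence. MAX stayed between 6.10 and 9.79 CPM per kilobase in all 8 libraries. These sums weigh RNA only, depend on the exon lengths used, and are given with no test because the members were combined with their values known. They include the uncertain MXD3 counts, and in postconfluent Z1flag replicate 2 the order rests on them. There MXD3 gave 6.38 of the antagonists' 37.9 CPM per kilobase, against 34.1 for the MYC family, so without MXD3 the MYC family would be the larger.

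**Figure D3:**
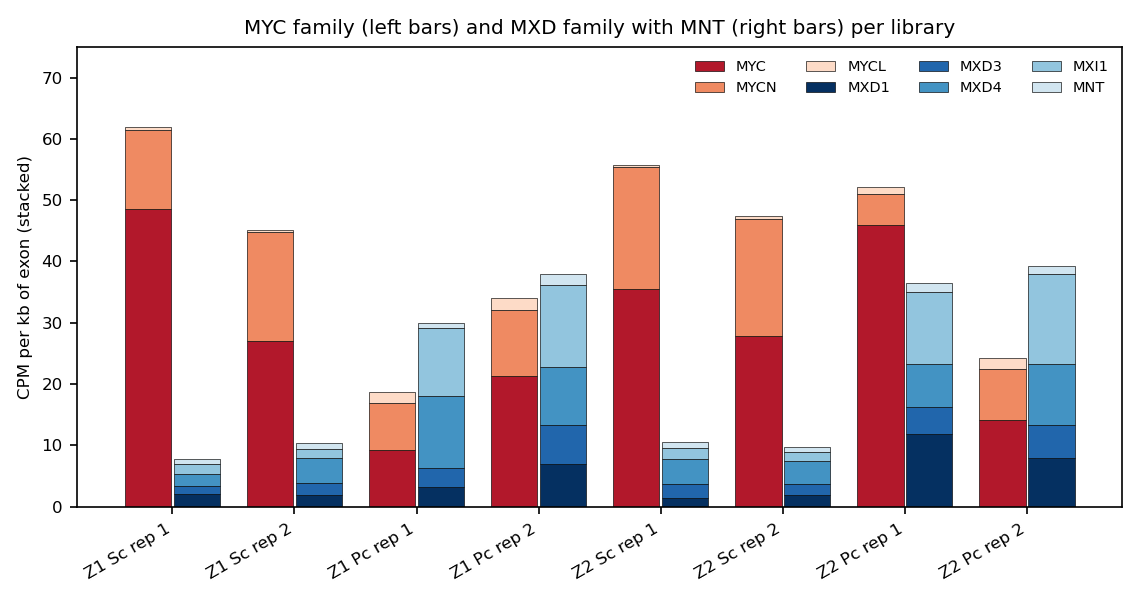
Stacked CPM per kilobase of exon in each library: left bars, MYC, MYCN and MYCL; right bars, MXD1, MXD3, MXD4, MXI1 and MNT. The right bars reach at most 10.6 in the subconfluent libraries and at least 29.9 in the postconfluent ones, and the left bar of Z2flag postconfluent replicate 1 stays high at 52.2.

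Genes that MYC is known to activate were mostly lower after confluence. Of 60 listed genes tested, 49 fell and 1 rose over both lines, with a median log2 fold change of -1.40 beside -0.01 for all genes, of which 27.5% fell. UTP20, a factor of small ribosomal subunit assembly, fell from 207 ± 29.3 to 28.6 ± 7.23 CPM (SD, n = 4), by 2.86 on the log2 scale (adjusted p = 6.8e-06). MRTO4, which acts in large subunit assembly, fell by 1.88 and UNG, a uracil-DNA glycosylase, fell by 1.92. The 1 gene that rose was LDHA, a lactate dehydrogenase subunit, by 0.87 (adjusted p = 0.0244), and its call was lost in 5 of 16 alternatives. LDHA had 574 CPM in postconfluent Z1flag replicate 1, below all subconfluent libraries, and 1174 to 1694 CPM in the other 3. The median of the 60 genes, as log2 CPM minus the subconfluent mean, was -1.87 and -1.23 in the postconfluent Z1flag libraries and -1.08 and -1.42 in the Z2flag ones. In the subconfluent libraries it lay between -0.06 and 0.05. The library with the highest postconfluent MYC level had the smallest fall of the 4, but still lay more than 1 log2 unit below the subconfluent libraries.

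**Figure D4:**
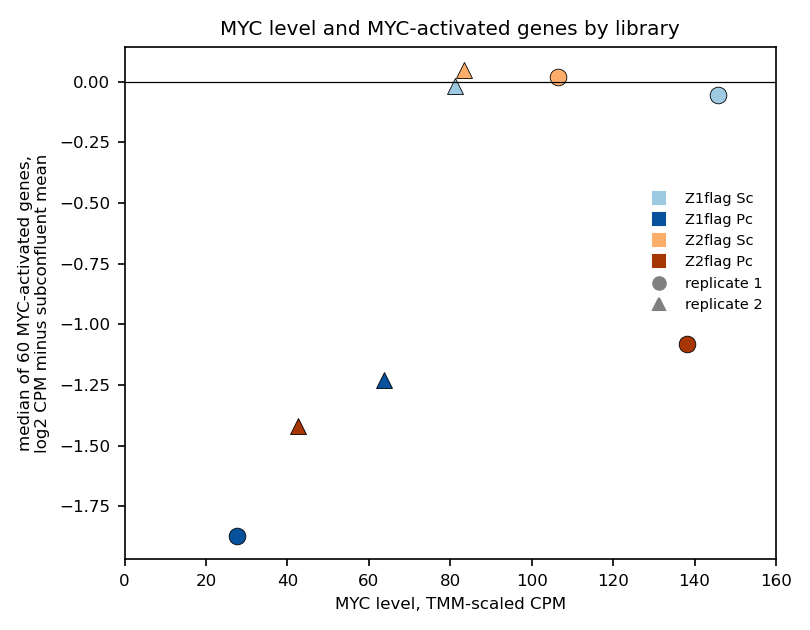
MYC level (horizontal, CPM) against the median of 60 MYC-activated genes (vertical, log2 CPM minus the mean of the subconfluent libraries) in the 8 libraries. Postconfluent Z2flag replicate 1, at 138 CPM of MYC, has a median of -1.08, while subconfluent libraries with 81.1 to 146 CPM stay between -0.06 and 0.05.

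Markers of division moved with these genes: 12 of 15 proliferation genes fell and 0 rose, median -1.16, where 27.5% of all genes fell. PCNA fell by 1.80, MCM3 by 1.67 and MKI67 by 1.42 on the log2 scale. In the postconfluent libraries, in the order above, the proliferation median was -1.92, -0.85, -0.92 and -0.90. The part of cell division in the fall of MYC-activated genes was not tested. Of 15 Wnt target genes, another list that contains no member, 11 fell and 0 rose, median -1.24, beside the same 27.5% of all genes. They were led by LGR5 (-3.78), a crypt stem cell marker, ASCL2 (-3.11), a stem cell transcription factor, and NKD1 (-2.04), a feedback inhibitor.

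The E-box CACGTG was in a RefSeq window of 27 of the 50 MYC-activated genes that had one, in 27 of 66 windows (40.9%), beside 7.26% of all windows. The genes were listed for their known link to MYC, and this share describes the list. For the named genes the 30 bases around the E-box (capitals) are shown so that the flanks can be compared, from plus-strand windows at chr12:101280083-101280112 for UTP20, chr1:19251807-19251836 for MRTO4, chr12:109098113-109098142 for UNG and chr11:18394464-18394493 for LDHA.
UTP20: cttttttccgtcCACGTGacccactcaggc
MRTO4: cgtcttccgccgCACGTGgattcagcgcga
UNG: ccgcgaaaagacCACGTGgggacgcggtgg
LDHA: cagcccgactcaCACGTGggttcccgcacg
The E-box begins 10 bases before the start of UTP20, 14 bases after that of MRTO4, 47 before that of UNG and 87 before that of LDHA. UNG and LDHA each have 2 E-boxes in the window. UTP20, MRTO4 and UNG fell and LDHA rose, each with these letters in its window.

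Genes that MYC is known to repress moved the other way. Of 10 tested, 6 rose and 0 fell, median 1.01, where 27.8% of all genes rose. NDRG1, named for its repression by MYC family proteins, rose from 3.61 ± 1.49 to 238 ± 34.6 CPM (SD, n = 4; log2 6.08, adjusted p = 1.3e-06). CDKN1A, the cell cycle inhibitor p21, rose from 4.57 ± 0.471 to 42.2 ± 1.94 CPM (3.21) and FTH1, ferritin heavy chain, by 1.33. NDRG1 had 188 CPM in postconfluent Z2flag replicate 1, the library with high MYC, and 245 to 268 CPM in the other 3. The CACGTG motif was in 0 of the 12 windows found, which cover 7 of the 11 listed genes, beside 7.26% of all windows. So few windows cannot tell 0 from that share.

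Of 19 tested targets of ChREBP and MondoA, 12 rose and 3 fell over both lines, median 1.05, where 27.8% of all genes rose and 27.5% fell. In Z1flag 10 rose and in Z2flag 7. Over both lines 9 rose without postconfluent Z2flag replicate 2, and 7 of 14, median 0.62, where at least 5 CPM in 2 libraries was required. TXNIP, which restrains glucose uptake, rose from 46.0 ± 6.55 to 2258 ± 276 CPM (SD, n = 4; log2 5.62, adjusted p = 9.1e-07), the related arrestin ARRDC4 by 2.86 and the repressor KLF10 by 3.02. SLC2A2, the GLUT2 transporter gene, fell by 2.19. The lipogenic enzymes were split: ACACA fell by 0.93 and ACLY by 0.68, SCD rose by 0.82 and ELOVL6 by 0.65, and the SCD call was lost in 6 of 16 alternatives and did not pass in either line (adjusted p = 0.0888 and 0.116), while FASN, at -0.24, did not pass (adjusted p = 0.412). G6PC1, glucose-6-phosphatase, had 0 counts in all subconfluent libraries and 2.12, 0.459, 0 and 0.541 CPM in the postconfluent ones, in the order above. Its call over both lines was lost with DESeq2 and without postconfluent Z2flag replicate 2, and it did not pass in Z2flag (adjusted p = 0.0783). At its lower bound (3 counts over the subconfluent group) it stayed above the list's median of 1.05, so that median could not move. Leaving out Z1flag replicate 1 of both states, which had most reads in no feature, 10 rose and 3 fell with a median of 0.67, and the median was 1.62, 1.09, 0.44 and 1.14 in the postconfluent libraries in the order above. CACGTG was in 2 of the 19 windows of this list (10.5%), beside 7.26% of all windows and 9.07% of those of tested genes. These windows belong to 2 genes of the 14 that had one. ARRDC4, shown here, is 1 of them, with the E-box on the plus strand at chr15:97960481-97960510, beginning 210 bases before its start.
ARRDC4: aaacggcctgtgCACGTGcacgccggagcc
The windows of TXNIP and SLC2A2 held no CACGTG. KLF10 and the other genes named from this list were not looked up singly.

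**Figure D5:**
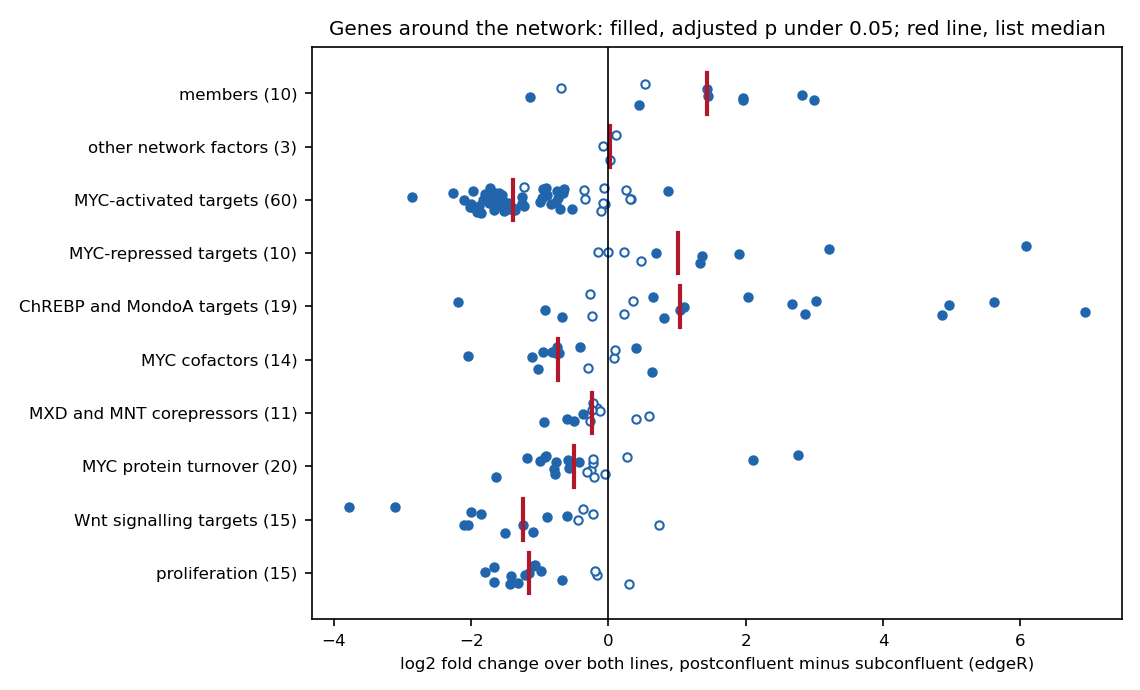
Log2 fold change over both lines (horizontal axis) of the tested genes of each list, filled where the adjusted p is under 0.05, with the list median as a red line; numbers of tested genes are in brackets. MYC-activated genes lie mostly below 0 (median -1.40), while the members (1.44), MYC-repressed genes (1.01) and targets of ChREBP and MondoA (1.05) have medians above 0.

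Proteins that work with the network were measured too. Of 14 MYC cofactors, 9 fell and 2 rose, median -0.74, where 27.5% of all genes fell and 27.8% rose. The helicase RUVBL1 fell by 2.05, the acetyltransferase KAT2A by 1.03 and WDR5, a histone methylation scaffold, by 0.96. ZBTB17 (MIZ1), with which MYC represses genes, rose by 0.64 (adjusted p = 0.0232), a call lost without any 1 of 4 libraries. Of 11 corepressor genes used by MXD proteins and MNT, 4 fell and 0 rose, median -0.24, where 27.5% of all genes fell, and leaving out 1 library moved the count that fell from 2 to 6. HDAC2 fell by 0.95, RBBP7 by 0.61, and SIN3B by 0.50, the last call being lost in 6 of 16 alternatives. With upper-quartile scaling 2 corepressor genes fell and 2 rose. SIN3A, the scaffold, had a log2 fold change of -0.24 (adjusted p = 0.182). Of 20 genes for MYC protein turnover, 11 fell and 2 rose, median -0.50, beside the same 27.5% and 27.8% of all genes. CIP2A, which protects MYC protein from PP2A, fell by 1.64 and SKP2, a ubiquitin ligase subunit, by 1.19, while the kinase gene PIM1 rose from 39.2 ± 8.27 to 174 ± 75.2 CPM (SD, n = 4; log2 2.10). The ligase gene FBXW7 was at 48.8 and 46.9 CPM (adjusted p = 0.811).

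The tissue label was checked with marker lists. Of 13 tested genes of intestinal epithelium, 9 rose and 3 fell over both lines, where 27.8% of all genes rose and 27.5% fell. Among them, APOA4 rose by 5.52 and the alkaline phosphatase ALPI by 2.59, while HNF4A fell by 1.22. The summed level of the list went the other way, from 12128 to 14305 CPM before to 5570.0 to 9042 CPM after confluence, and its most abundant genes, the keratins KRT8 and KRT18, fell from means of 6755 and 4132 CPM to 2325 and 1101 CPM. Fibroblast genes had summed levels of 183 to 233 CPM before and 72.2 to 86.9 CPM after confluence, with 1 of 5 tested genes higher (COL1A1) and 3 lower, and COL1A2 at 0 in every library. Leukocyte genes summed to 9.64 to 23.3 and 18.6 to 29.6 CPM, with 1 of 4 tested genes higher (ITGAM), and PTPRC had a mean of 0.0225 CPM before and 0 after confluence. Endothelial genes summed to 4.64 to 11.3 and 8.10 to 22.8 CPM, with both tested genes higher (PECAM1 and VWF) and KDR at 0 throughout, and neither passed without Z1flag replicate 1 of both states. The part of these marker changes in the members' values was not tested.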

How the data were processed

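RNA of 8 cultures was sequenced, per the labels' protocols as rRNA-depleted, strand-specific, paired-end libraries. The authors deposited raw counts per Ensembl gene ID. Per the submitters' processing notes, STAR 2.5.2b was used with hg38, beside SAMtools and HTSeq. The sources used here do not give the annotation, counting mode or strand setting. HTSeq's classes of unassigned reads were left out of library sizes.

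Genes were kept with edgeR's filterByExpr (minimum count 10, minimum total 15), scaled by TMM and fitted with edgeR 4.0.16 (robust quasi-likelihood, 4 group means in 1 fit, 4 residual degrees of freedom), with Benjamini-Hochberg adjustment. The spread is thus pooled over the groups, and 2 libraries a group limit the precision. The SE given for a member's fold change was derived from the test. It is the size of the log2 value divided by the square root of the quasi-likelihood F value. Per-length levels divide CPM by the union of GENCODE v29 exons. DESeq2 1.42.0 and limma voom 3.58.1, other scalings, filters, a replicate block and leaving out libraries were alternatives. The fit was tested on simulated data.

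Members and gene lists were chosen with earlier results of these data known. From each other list the text names up to 3 genes with the smallest adjusted p over both lines and a mean of at least 1 CPM, plus the first that passed in the other direction. For likeness it names the 3 genes with the highest Pearson r to MYC and MLXIPL. MYCNOS, FASN, ACACA, ACLY, SCD, ELOVL6, G6PC1, SIN3A, FBXW7, VWF, KRT8, KRT18 and the genes named as at 0 were named after their values were seen.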

Additional observations from a re-analysis of the deposited data

How the results depend on the processing

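Of 532 alternative values for the members' confluence changes (each line and both lines) and for the MYC and MXD1 differences between the lines' changes, 480 kept direction and side of the threshold, 22 newly passed, 23 no longer passed and 7 changed sign. Those that changed sign were near 0 or rest on 1 library: MYC in Z2flag was 0.083 with upper-quartile scaling, 0.022 with at least 5 CPM required in 2 libraries, 0.023 and 0.018 without postconfluent Z1flag replicates 1 and 2, 0.099 without subconfluent Z2flag replicate 1 and 0.63 without postconfluent Z2flag replicate 2 (range over left-out libraries -1.07 to 0.63), and MNT in Z1flag was -0.068 without postconfluent Z1flag replicate 2 (range -0.068 to 0.98).

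In Z1flag, the count of members that fell was 0, and 1 (MYCN) with DESeq2, with no filter and with the replicate block. Leaving out 1 library at a time, it ranged from 0 to 2, the members that rose in Z1flag from 4 to 7 and in Z2flag from 4 to 8, and those that fell over both lines from 1 to 2. All genes called ranged from 3757 to 8862 in Z1flag and from 2894 to 9108 in Z2flag. The difference between the lines' changes called 0 to 1 members and 0 to 190 genes, and the lines after confluence 0 to 1 members and 0 to 2252 genes, the upper ends being without postconfluent Z1flag replicate 2. With no filter, 41 genes passed for the difference, 2 between subconfluent lines, and 221, with 1 member (MXD1), between postconfluent lines. Leaving out Z1flag replicate 1 of both states, which had most reads in no feature, an alternative chosen after seeing the data, 4865 genes passed in Z1flag, and 8 members rose and 1 fell over both lines. Where 1 library of a group is left out, the other is assumed to vary like the rest. The causes were not tested.

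Upper-quartile scaling moved the all-gene median change, on the log2 scale, to 0.26 in Z1flag, 0.11 in Z2flag and 0.18 over both lines, and the higher share of calls to 67.1%, 60.4% and 62.0% (from 52.7%, 48.6% and 50.3%). The main fit did not pair the libraries by replicate number. Deviations from group means correlated between -0.18 and 0.18 over the 6 pairs of groups. With 2 libraries a group, such values cannot exclude that experiments were shared between groups. With the replicate block, 6 members rose and 1 fell in Z1flag, 6 and 1 in Z2flag, and 7 and 1 over both lines.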
